A study of Homo sapiens with 9 samples.

Results

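The genes described here are the 32 genes of purine and pyrimidine nucleotide synthesis, 32 of the 30017 genes in the deposited count table. They were chosen by symbol from a list drawn up for this work, with earlier results of these data known. They cover the supply of phosphoribosyl pyrophosphate (PRPP, 2 genes), de novo purine synthesis (10 genes), de novo pyrimidine synthesis (5 genes), the making of deoxynucleotides (8 genes), nucleotide kinases (3 genes) and salvage (4 genes). All 32 passed the filter on low counts, which kept 12712 genes. RNA was sequenced from MOLM13, a human acute myeloid leukemia cell line, after transduction with a GFP-marked pLKO lentivirus. The virus expressed a control hairpin (sh-Control) or either of 2 hairpins against the RNA helicase DDX41, named shDDX41 #1 and shDDX41 #2. GFP-positive cells were sorted on day 4, so every library, controls included, came from transduced and sorted cells of 1 line. Each group held 3 libraries, lettered A, B and D, and the libraries held 16385238 to 20510032 counts.

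Levels are counts per 1000000 (CPM) after TMM scaling of the library totals and are listed in the order A, B, D. A gene was called lower or higher at an adjusted p under 0.05 in edgeR's quasi-likelihood test. DDX41 itself, the targeted gene, was at 117, 115 and 113 CPM with sh-Control, 12.2, 12.9 and 9.95 with shDDX41 #1 and 38.9, 39.9 and 42.5 with shDDX41 #2. It fell to 10.2% of the control level with shDDX41 #1 (adjusted p = 4.1e-12) and to 35.2% with shDDX41 #2 (adjusted p = 7e-09), so the hairpins differed in depth of knockdown. Each depth came from a single hairpin, so depth and hairpin sequence cannot be told apart. Of 10 myeloid markers, CD33, FLT3, LYZ, MPO and SPI1 were well expressed in every group, while CD14 held at most 3 counts in any library. These markers were not level between groups. With shDDX41 #2, 5 of the 9 tested were higher and none lower, LYZ by 0.96 ± 0.066, adjusted p = 1.6e-07, MPO by 0.59, ITGAM by 0.52, PTPRC by 0.18 and KIT, at no more than 2.18 CPM, by 1.48 on the log2 scale. With shDDX41 #1, CD33 and FLT3 were higher (0.25 and 0.20) and CSF1R was lower (−0.86). Of all genes tested, 11.6% were higher and 13.4% lower with shDDX41 #2, and 23.7% and 24.1% with shDDX41 #1. The summed level of the 10 myeloid markers was 1966 to 2031 CPM with sh-Control, 1988 to 2011 with shDDX41 #1 and 2916 to 2949 with shDDX41 #2. Within this sum LYZ alone had a mean of 931 CPM with sh-Control, 870 with shDDX41 #1 and 1818 with shDDX41 #2. Of 10 markers of other cell types MS4A1 and HBB had no count, and the summed level of the 10 was 148 to 157 CPM with sh-Control, 117 to 119 with shDDX41 #1 and 197 to 207 with shDDX41 #2, most of it PECAM1. The part of these marker changes in the results was not tested. Library D of shDDX41 #1 stood apart from its group. A chi-square of the counts over its degrees of freedom was 17.6 and 19.2 against libraries A and B, and 2.91 between A and B. The sh-Control libraries differed among themselves by 7.998 to 10.1 and the shDDX41 #2 libraries by 2.45 to 3.25.

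Cells make nucleotides de novo from PRPP, amino acids, bicarbonate and one-carbon units carried by folate, or recycle bases and nucleosides by salvage. Ribonucleotide reductase turns ribonucleoside diphosphates into deoxynucleotides, and thymidylate is made from deoxyuridylate or by phosphorylating thymidine. The genes for deoxynucleotide production are mostly known for expression that rises as cells enter S phase, whereas the ribonucleotide enzymes serve RNA synthesis throughout the cell cycle. Leukemia cells draw heavily on these pathways, and several of the enzymes are targets of antimetabolite drugs.

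With shDDX41 #1, 22 of the 32 genes were called, 18 lower and 4 higher. This was 68.8% of them, where 47.8% of all genes tested were called (24.1% lower and 23.7% higher). Their median log2 fold change was −0.29, beside a median of 0.012 over all genes. With shDDX41 #2, 8 of the 32 were called and all 8 were lower. That was 25.0% of the genes, and 25% of all genes tested were called (13.4% lower and 11.6% higher). The median was −0.12, beside −0.011 over all genes. No member was called higher with shDDX41 #2 by edgeR, DESeq2 or limma voom, while 1 was higher and 13 were lower at an unadjusted p under 0.05. At that unadjusted threshold, 2237 of all 12712 genes tested were higher and 2515 lower. CMPK1 was called higher with only the 6 libraries of that comparison fitted, with libraries A and B only (an alternative chosen after seeing the data) or without library D of shDDX41 #1. Both comparisons used the same 3 control libraries, so their values are not independent. In these bulk samples, fewer cells of a kind or cell cycle phase and less RNA per cell cannot be told apart.

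**Figure D1:**
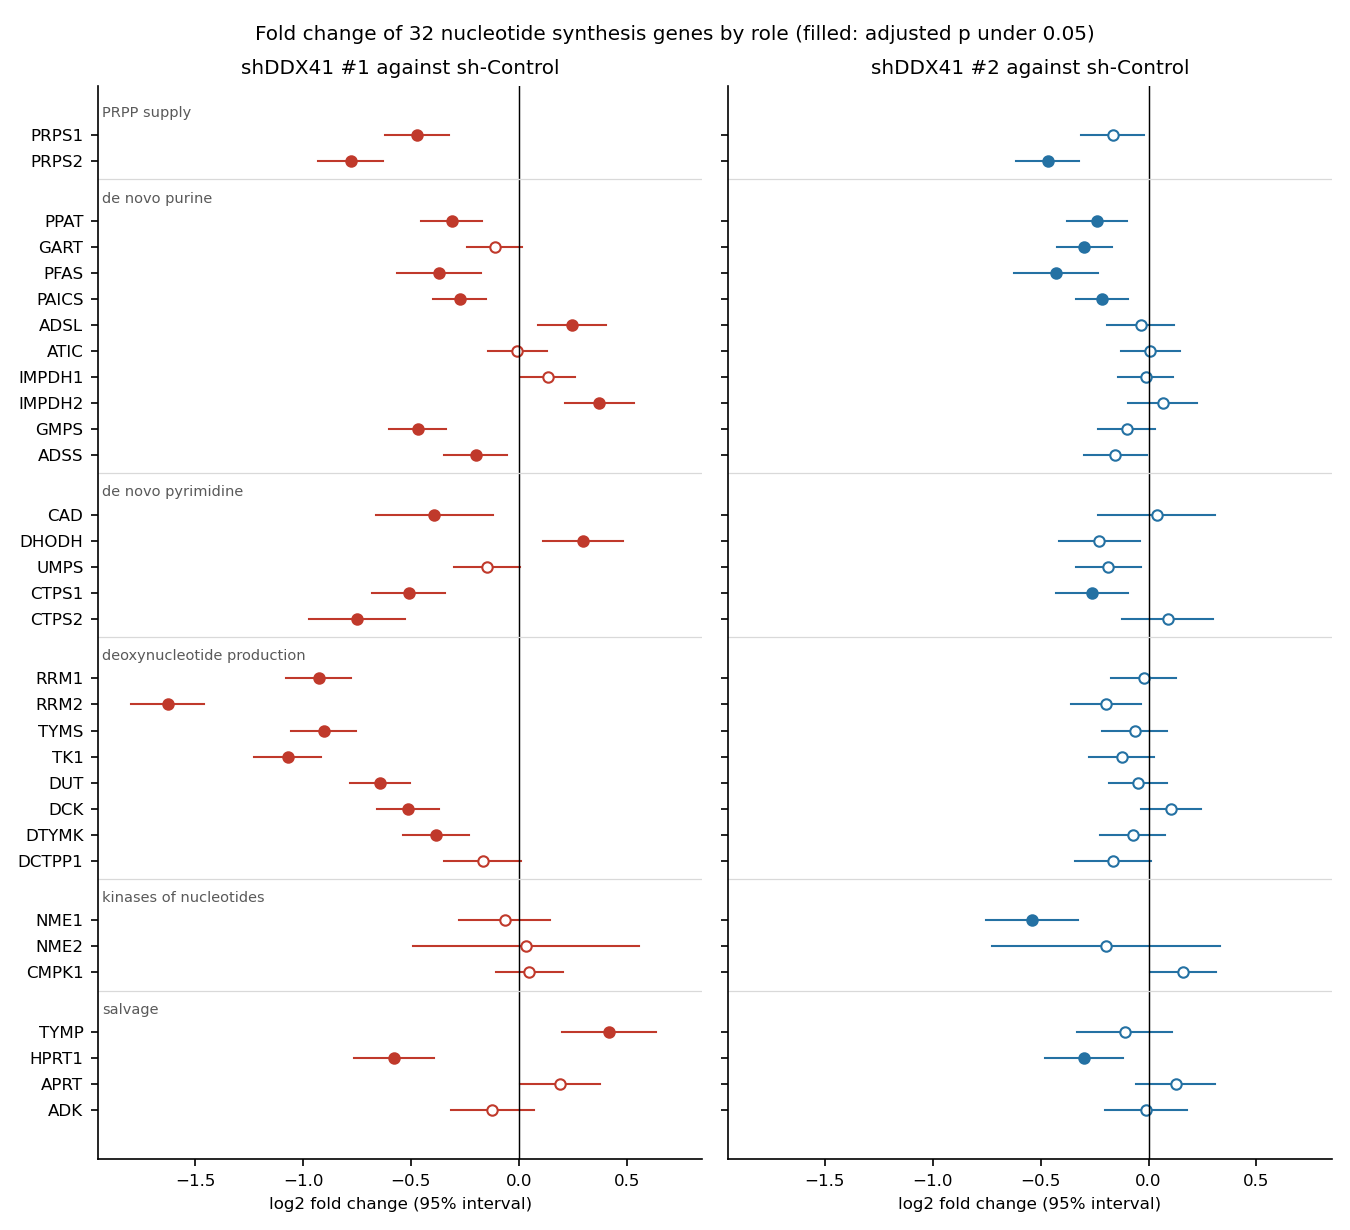
Log2 fold change against sh-Control of the 32 genes, grouped by role, for shDDX41 #1 (left) and shDDX41 #2 (right), with 95% intervals unadjusted for the number of genes. Filled points had an adjusted p under 0.05, and RRM2 with shDDX41 #1 lies farthest from 0, at −1.63.

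Among the 32 genes the largest falls were in deoxynucleotide production with shDDX41 #1, where 7 of 8 genes were lower and none was higher. Of all genes tested, 24.1% were lower with that hairpin. The median log2 fold change of the 8 genes was −0.77 with shDDX41 #1 and −0.069 with shDDX41 #2. With shDDX41 #2 edgeR called 0 of the 8, beside 25% of all genes tested. DESeq2 and limma voom also called 0 of them with shDDX41 #2, and 1 gene, RRM2, had an unadjusted p under 0.05. Over all 12712 genes tested, 2515 were lower and 2237 higher at that unadjusted threshold. The hairpins were compared directly, and 7 of the 8 genes were lower with shDDX41 #1 than with shDDX41 #2. Among all 32 genes 20 differed between the hairpins, 14 lower and 6 higher with shDDX41 #1, or 62.5%, where 48.8% of all genes tested differed (24.2% lower and 24.6% higher). A further list held 18 genes that make no nucleotides, replication genes and the proliferation marker MKI67. All 18 were lower with shDDX41 #1 (median −0.78), where 24.1% of all genes tested were lower. With shDDX41 #2, 3 of the 18 were lower (16.7%, median −0.11), beside 13.4% of all genes tested. The part of cell cycle phase in the values of the deoxynucleotide genes was not tested.

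The stretches before the start sites are shown for 4 of the 8 deoxynucleotide genes, from RefSeq's table on GRCh38.p14, 5′ to 3′ on the strand of the gene. Those of DUT, TK1 and DCTPP1, which also held matches, are not printed. Capitals mark letters that match 1 of 3 motifs searched on both strands: the E2F-like spellings TTTCCCGC, TTTGGCGC, TTTCGCGC and TTTGCCGC, the E-box CACGTG, and the CCAAT box.
TYMS (chr18:657503-657652, plus strand): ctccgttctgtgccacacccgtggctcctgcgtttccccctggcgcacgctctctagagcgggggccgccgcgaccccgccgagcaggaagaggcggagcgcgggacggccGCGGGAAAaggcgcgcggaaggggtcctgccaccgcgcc
RRM1 (chr11:4094535-4094684, plus strand): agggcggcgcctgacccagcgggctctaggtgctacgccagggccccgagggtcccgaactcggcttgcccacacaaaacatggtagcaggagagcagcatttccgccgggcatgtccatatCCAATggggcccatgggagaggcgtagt
DCK (chr4:70993499-70993648, plus strand): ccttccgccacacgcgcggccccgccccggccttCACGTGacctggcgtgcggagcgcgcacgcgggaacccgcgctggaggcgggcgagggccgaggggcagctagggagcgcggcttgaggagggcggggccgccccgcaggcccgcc
DTYMK (chr2:241686816-241686965, minus strand): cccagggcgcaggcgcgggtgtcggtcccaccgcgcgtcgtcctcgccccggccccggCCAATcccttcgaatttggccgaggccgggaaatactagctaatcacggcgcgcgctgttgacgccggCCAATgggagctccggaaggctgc
For RRM2, which has 3 CCAAT boxes before its downstream start site, a 30-base stretch around the first is given.
RRM2 (chr2:10122611-10122640, plus strand): cgcagCCAATgggaagggtcggaggcatgg
RefSeq's windows ran from 250 bases before to 50 after a start, and 30 of the 32 genes had one, ADSL and IMPDH2 being the exceptions. An E2F-like spelling was found for 3 of the 8 deoxynucleotide genes, TYMS, DUT and DCK, and for 5 of the 30 genes in all, compared with 3.99% of the 27305 genes with a window. The TYMS match is TTTCCCGC read on the opposite strand, and that of DCK begins at base 22 after its start, outside the stretch shown. CCAAT was found for 4 of the 8 (RRM1, RRM2, TK1 and DTYMK) and 11 of the 30, with 39.7% over all genes, and the E-box for 2 of the 8 (DCK and DCTPP1) and 7 of the 30, with 8.77% over all genes. The E-box counted for PPAT and that counted for PAICS are the same letters, read in the windows of both genes. A gene counted if any of its windows held a match. The 30 genes had 46 windows, and the 27305 genes had 35116. A match is only a description of the letters.

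RRM2, the small subunit of ribonucleotide reductase that carries its radical, was at 354, 356 and 332 CPM with sh-Control, 118, 122 and 97.6 with shDDX41 #1 and 308, 308 and 293 with shDDX41 #2. All shDDX41 #1 libraries lay far below both other groups, and the shDDX41 #2 libraries lay just below the controls with no overlap. The log2 fold change was −1.63 ± 0.079, adjusted p = 1.6e-09 with shDDX41 #1, a fall to 32.4% of control, and −0.20 ± 0.076, adjusted p = 0.071 with shDDX41 #2. The second value did not pass, but it did with only the 6 libraries of that comparison fitted (adjusted p = 0.015) or without library D of shDDX41 #1 (adjusted p = 0.0087). RRM1, the large subunit, was at 278, 289.7 and 302 CPM with sh-Control, 143, 159 and 155 with shDDX41 #1 and 276, 309.9 and 269.8 with shDDX41 #2. Its shDDX41 #2 libraries overlapped the controls, and the log2 fold changes were −0.93 ± 0.071, adjusted p = 1e-07 with shDDX41 #1, and −0.023 ± 0.07, adjusted p = 0.84 with shDDX41 #2.

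Thymidylate can be made by TYMS, thymidylate synthase and the target of fluoropyrimidines, or by the cytosolic thymidine kinase TK1. TYMS was at 356, 361 and 387 CPM with sh-Control, 186, 212 and 192 with shDDX41 #1 and 345, 378 and 332 with shDDX41 #2. TK1 was at 89.9, 79.9 and 82.2 CPM with sh-Control, 42.4, 37.5 and 39.9 with shDDX41 #1 and 75.1, 80.8 and 75.1 with shDDX41 #2. For both genes the shDDX41 #1 libraries sat below every other library, whereas shDDX41 #2 overlapped the controls. The log2 fold changes with shDDX41 #1 were −0.90 ± 0.071, adjusted p = 1.2e-07, for TYMS and −1.07 ± 0.073, adjusted p = 3.5e-08, for TK1. With shDDX41 #2 they were −0.065, adjusted p = 0.54, and −0.12, adjusted p = 0.21. TYMS shares its locus with the coding gene ENOSF1 on the opposite strand, which was at 20.5 to 27.1 CPM in all libraries and was not called with either hairpin (log2 fold changes −0.17 and −0.22).

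DUT, the dUTPase that keeps uracil out of DNA, was at 178, 165 and 182 CPM with sh-Control, 107, 114 and 116 with shDDX41 #1 and 173, 172 and 163 with shDDX41 #2. DCK, the deoxycytidine kinase that activates cytarabine, was at 57.8, 60.95 and 62.9 CPM with sh-Control, 45.1, 41.7 and 40.5 with shDDX41 #1 and 64.1, 65.9 and 65.3 with shDDX41 #2. DTYMK, which phosphorylates thymidylate, was at 71.6, 60.8 and 69.99 CPM with sh-Control, 52.9, 50.4 and 52.1 with shDDX41 #1 and 65.2, 62.4 and 64.8 with shDDX41 #2. Each of these genes was lower in all 3 shDDX41 #1 libraries than in any other library. The log2 fold changes with shDDX41 #1 were −0.64 ± 0.065 for DUT, −0.51 ± 0.067 for DCK and −0.38 ± 0.072 for DTYMK (adjusted p = 1.5e-06, 2.1e-05 and 0.000503). With shDDX41 #2 they were −0.049, 0.10 and −0.074, and none passed (adjusted p = 0.62, 0.27 and 0.48). Of the 32 genes, 12 have named pseudogenes, among them IMPDH1 with 11, DUT with 8, PAICS with 7 and RRM2 with 3. How reads shared with such copies were counted is not given. DCTPP1, a pyrophosphatase that clears surplus dCTP, was at 70.6, 75.6 and 80.2 CPM with sh-Control, 58.8, 68.3 and 74.4 with shDDX41 #1 and 68.2, 69.3 and 64.4 with shDDX41 #2. It did not pass with either hairpin (−0.17, adjusted p = 0.11, and −0.16, adjusted p = 0.17), and without library D of shDDX41 #1 it was lower with that hairpin (−0.24, adjusted p = 0.015).

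**Figure D2:**
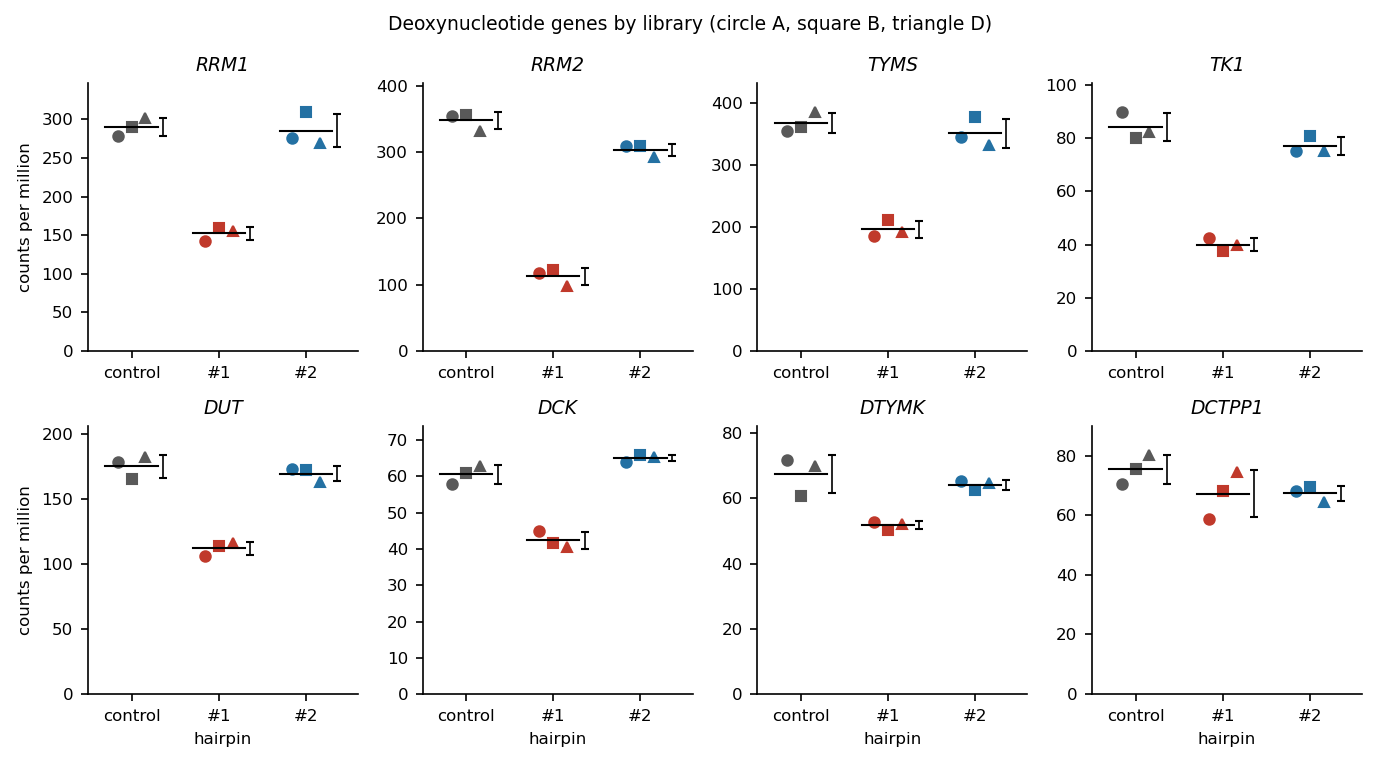
CPM values of the 8 deoxynucleotide genes in each library, with the mean (line) and SD (bar) of 3 libraries. With shDDX41 #1, RRM2 reached 97.6 to 122 CPM against 332 to 356 with sh-Control, and DCTPP1 overlapped both other groups.

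The PRPP synthetases make the activated ribose that both de novo pathways and salvage consume. PRPS1 was at 104, 115 and 117 CPM with sh-Control, 81.2, 78.001 and 82.8 with shDDX41 #1 and 106, 96.99 and 95.998 with shDDX41 #2. PRPS2 was at 68.8, 75.003 and 77.4 CPM with sh-Control, 45.5, 40.8 and 42.6 with shDDX41 #1 and 54.95, 53.3 and 51.6 with shDDX41 #2. Every library of either hairpin lay below every control library for PRPS2, whereas for PRPS1 that held only for shDDX41 #1. With shDDX41 #1 the log2 fold changes were −0.47 ± 0.069, adjusted p = 5.6e-05, for PRPS1 and −0.78 ± 0.071, adjusted p = 5.4e-07, for PRPS2. With shDDX41 #2 they were −0.17 ± 0.068, adjusted p = 0.088, and −0.47 ± 0.07, adjusted p = 0.00022, so only PRPS2 passed, although PRPS1 did without library A of sh-Control (adjusted p = 0.037). Both were lower with shDDX41 #1 than with shDDX41 #2, with log2 differences of −0.31 for PRPS1 (adjusted p = 0.0019) and −0.31 for PRPS2 (adjusted p = 0.0022). PRPS2, an X-linked gene, has an E2F-like spelling, in capitals, starting 12 bases before its start site.
PRPS2 (chrX:12791262-12791411, plus strand): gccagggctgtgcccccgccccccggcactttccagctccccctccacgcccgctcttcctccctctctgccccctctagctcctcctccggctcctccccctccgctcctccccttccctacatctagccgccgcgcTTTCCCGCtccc

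Of the 10 de novo purine genes, 5 were lower and 2 higher with shDDX41 #1, where 24.1% of all genes were lower and 23.7% higher, and 3 were not called. With shDDX41 #2, 4 were lower and none higher, where 13.4% of all genes were lower and 11.6% higher, and 6 were not called (the median log2 fold changes were −0.16 and −0.13). At an unadjusted p under 0.05 the counts for shDDX41 #2 were 5 lower and 0 higher, beside 2515 lower and 2237 higher of all 12712 genes tested. DESeq2 and limma voom both called 4 lower and 0 higher. PPAT, which commits PRPP to the pathway, was at 59.7, 60.8 and 64.2 CPM with sh-Control, 52.4, 48.8 and 47.6 with shDDX41 #1 and 51.5, 52.6 and 52.4 with shDDX41 #2. PAICS, which acts further along, was at 535, 551 and 567 CPM with sh-Control, 453, 459 and 455 with shDDX41 #1 and 477, 484 and 463 with shDDX41 #2. For both genes all 6 hairpin libraries lay below the controls. The log2 fold changes of PPAT were −0.31 ± 0.066, adjusted p = 0.0012, with shDDX41 #1 and −0.24 ± 0.065, adjusted p = 0.014, with shDDX41 #2. Those of PAICS were −0.27 ± 0.057, adjusted p = 0.0011, and −0.22 ± 0.057, adjusted p = 0.012. No difference between the hairpins passed for either gene, and its 95% interval was −0.21 to 0.0699 for PPAT and −0.18 to 0.063 for PAICS. With shDDX41 #2 the call of PPAT was lost without library D of sh-Control (adjusted p = 0.057) or A of shDDX41 #2 (adjusted p = 0.057), and that of PAICS without library D of shDDX41 #2 (adjusted p = 0.065). PPAT and PAICS are read in opposite directions from neighbouring start sites 136 bases apart, and RefSeq places a further PAICS start upstream, inside PPAT. The interval between the near start sites is shown on the strand of PPAT, with no motif letters to capitalise.
PPAT to PAICS (chr4:56435616-56435751, minus strand): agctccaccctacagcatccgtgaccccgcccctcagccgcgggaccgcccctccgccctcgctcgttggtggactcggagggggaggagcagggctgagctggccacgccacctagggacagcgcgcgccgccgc

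GART, which carries several early steps on 1 protein, was at 232, 254 and 246 CPM with sh-Control, 227, 230.5 and 219 with shDDX41 #1 and 200.5, 200.2 and 194 with shDDX41 #2. PFAS, which makes formylglycinamidine ribonucleotide, was at 119, 123 and 108 CPM with sh-Control, 97.5, 97.8 and 75.05 with shDDX41 #1 and 87.9, 89.1 and 82.6 with shDDX41 #2. GART was lowest in the shDDX41 #2 libraries, which lay below all others. Its log2 fold change was −0.30 ± 0.06, adjusted p = 0.0022, with shDDX41 #2 but −0.11 ± 0.059, adjusted p = 0.13, with shDDX41 #1, and the difference between the hairpins was 0.19 (adjusted p = 0.018), a call lost without library A or B of shDDX41 #1 or A or D of shDDX41 #2 (adjusted p up to 0.074). PFAS was lower with both hairpins, with log2 fold changes of −0.37 ± 0.092, adjusted p = 0.0037, with shDDX41 #1 and −0.43 ± 0.091, adjusted p = 0.0034, with shDDX41 #2. The value for shDDX41 #1 rested partly on library D, being −0.25 without it (adjusted p = 0.0057).

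ADSL, the lyase used in both AMP synthesis and the main chain, was at 143, 138 and 162 CPM with sh-Control, 167, 174 and 184 with shDDX41 #1 and 142, 153 and 137 with shDDX41 #2. IMPDH2, the inosine monophosphate dehydrogenase of proliferating cells and the target of mycophenolate, was at 499, 456 and 503 CPM with sh-Control, 594, 593 and 700.4 with shDDX41 #1 and 505, 528 and 492 with shDDX41 #2. Both were higher in every shDDX41 #1 library than in any other library, and shDDX41 #2 overlapped the controls. The log2 fold changes with shDDX41 #1 were 0.24 ± 0.074, adjusted p = 0.013, for ADSL and 0.37 ± 0.074, adjusted p = 0.00078, for IMPDH2. Without library B of sh-Control the call of ADSL was lost (adjusted p = 0.057), and without library D of shDDX41 #1 IMPDH2 was at 0.30 (adjusted p = 0.00041). GMPS, which takes the IMPDH product on to GMP, moved the other way, at 166, 170.0 and 170.4 CPM with sh-Control, 123, 128 and 114 with shDDX41 #1 and 156, 162 and 153 with shDDX41 #2. Its log2 fold change was −0.47 ± 0.062, adjusted p = 2.3e-05, with shDDX41 #1 and −0.10 ± 0.062, adjusted p = 0.25, with shDDX41 #2. Consecutive enzymes of the guanine branch were thus called in opposite directions with shDDX41 #1.

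The remaining purine genes had smaller fold changes. ADSS, the first enzyme of the AMP branch, was at 99.1, 105 and 114 CPM with sh-Control, 88.5, 89.9 and 98.3 with shDDX41 #1 and 94.3, 96.7 and 94.4 with shDDX41 #2. It was called lower with shDDX41 #1 (−0.20 ± 0.069, adjusted p = 0.026) but not with upper quartile factors (adjusted p = 0.15), with only the 6 libraries compared (adjusted p = 0.066) or without library D of sh-Control or A or B of shDDX41 #1 (adjusted p 0.081 to 0.12). IMPDH1, the other dehydrogenase, had log2 fold changes of 0.13 and −0.013 with the hairpins (adjusted p = 0.074 and 0.89). It was higher with shDDX41 #1 with upper quartile factors (0.21, adjusted p = 0.00898) and without library D of that hairpin (adjusted p = 0.049). ATIC, which closes the ring, had log2 fold changes of −0.0084 and 0.0071, with 95% intervals of −0.15 to 0.13 and −0.13 to 0.14.

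Of the 5 de novo pyrimidine genes, 3 were lower and 1 was higher with shDDX41 #1, and 1 was lower with shDDX41 #2. Of all genes tested, 24.1% were lower and 23.7% higher with shDDX41 #1, and 13.4% and 11.6% with shDDX41 #2. CAD, the enzyme of the opening steps, was at 151, 149.5 and 119 CPM with sh-Control, 119, 122 and 79.8 with shDDX41 #1 and 141, 148 and 142 with shDDX41 #2. Library D was the lowest of its group with sh-Control and with shDDX41 #1, and the level of the control library D overlapped those of A and B with shDDX41 #1. The log2 fold change of −0.39 ± 0.13, adjusted p = 0.0199, with shDDX41 #1 shrank to −0.21 without its library D (adjusted p = 0.046), and the call was lost without library A or B of sh-Control (adjusted p = 0.082 and 0.083). With shDDX41 #2 CAD was at 0.037 ± 0.13, adjusted p = 0.86. DHODH, the mitochondrial dehydrogenase of the pathway, was at 23.8, 23.5 and 24.1 CPM with sh-Control, 27.5, 29.8 and 30.5 with shDDX41 #1 and 20.5, 22.02 and 18.4 with shDDX41 #2. It was higher than control with shDDX41 #1 (0.30 ± 0.086, adjusted p = 0.0103), was not called with shDDX41 #2 (−0.23 ± 0.088, adjusted p = 0.0701), and differed between the hairpins by 0.53 (adjusted p = 0.00016). UMPS, which makes UMP, was not called with either hairpin (−0.15, adjusted p = 0.097, and −0.19, adjusted p = 0.067). Without library D of shDDX41 #1 it was lower with both (adjusted p = 0.048 and 0.035), and with only the 6 libraries compared it was lower with shDDX41 #2 (adjusted p = 0.034).

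The CTP synthases convert UTP into CTP. CTPS1, the form that lymphocytes depend on, was at 134, 154 and 160.2 CPM with sh-Control, 102, 115 and 97.5 with shDDX41 #1 and 124, 126 and 125 with shDDX41 #2. CTPS2 was at 20.9, 18.5 and 19.01 CPM with sh-Control, 10.9, 12.8 and 10.98 with shDDX41 #1 and 22.3, 20.1 and 19.7 with shDDX41 #2. For both genes the shDDX41 #1 libraries lay lowest, whereas shDDX41 #2 lay below control for CTPS1 and overlapped it for CTPS2. The log2 fold changes of CTPS1 were −0.51 ± 0.079, adjusted p = 9.5e-05, with shDDX41 #1 and −0.26 ± 0.079, adjusted p = 0.024, with shDDX41 #2. The call for shDDX41 #2 was lost when library B or D of sh-Control or any 1 library of shDDX41 #2 was left out (adjusted p 0.0701 to 0.094). The log2 fold changes of CTPS2 were −0.75 ± 0.1, adjusted p = 3.6e-05, and 0.089 ± 0.099, adjusted p = 0.55, and the difference between the hairpins was −0.84 (adjusted p = 1.1e-05). CTPS2 held 181 to 413 counts per library, the fewest of the called genes.

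**Figure D3:**
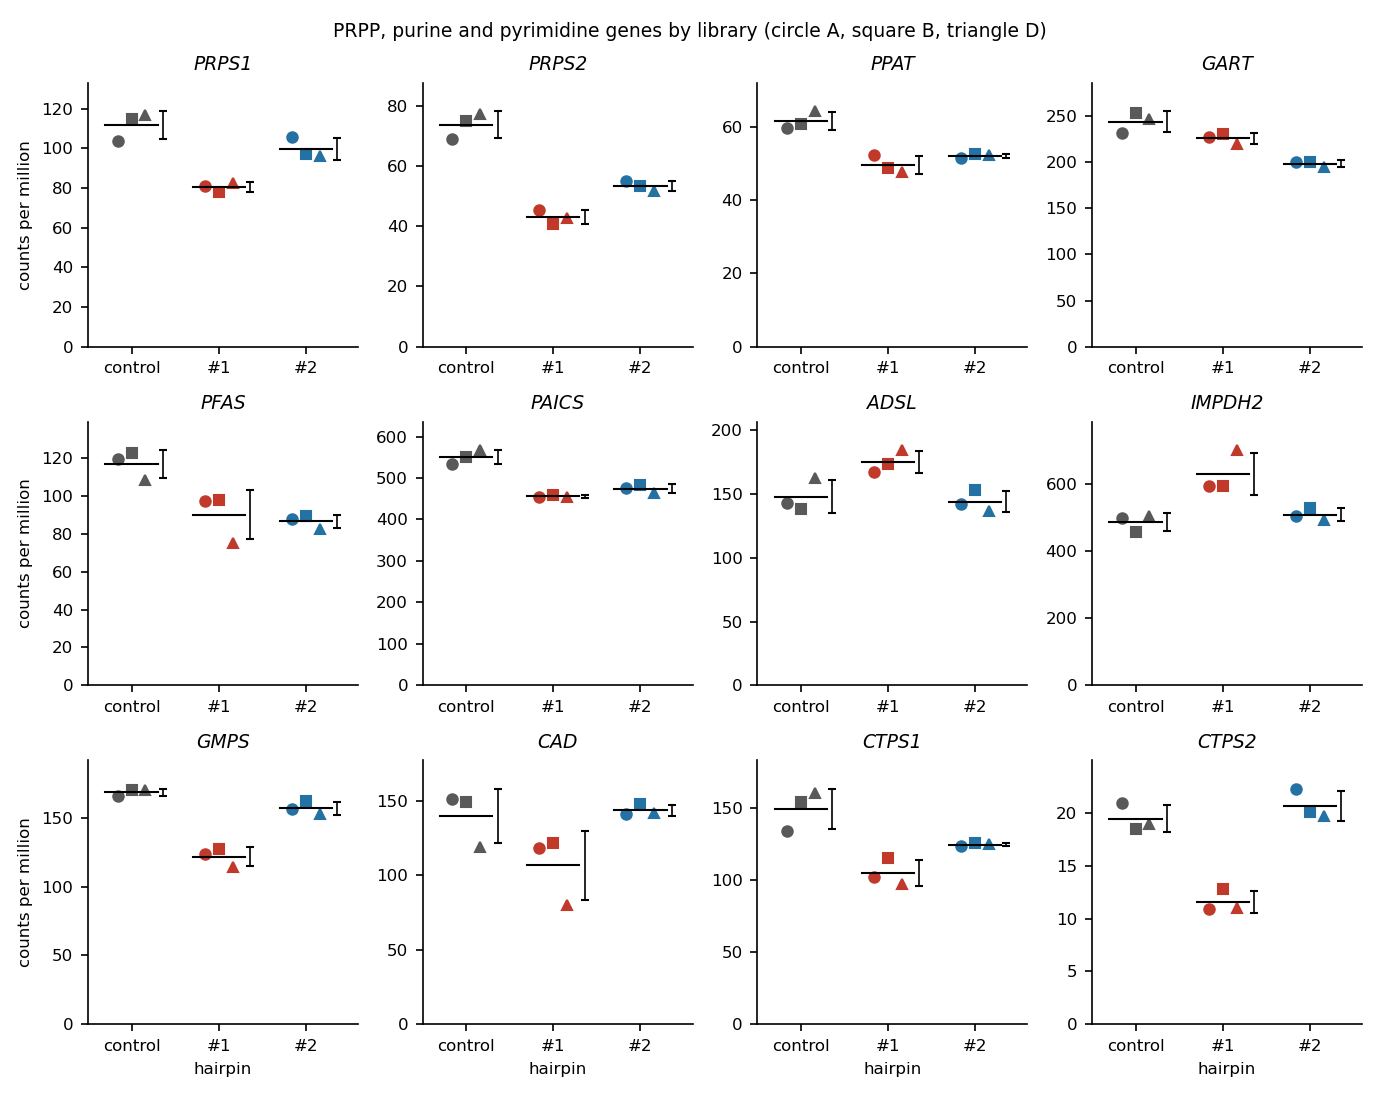
CPM values of 12 PRPP, purine and pyrimidine genes in each library, with the mean (line) and SD (bar) of 3 libraries. PRPS2 is below control with both hairpins, IMPDH2 is higher and GMPS lower with shDDX41 #1, and library D of CAD is low with sh-Control (119 CPM) and with shDDX41 #1 (79.8 CPM).

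Of the 3 nucleotide kinases, 1 was called with shDDX41 #2 and 0 with shDDX41 #1, beside 25% and 47.8% of all genes tested. NME1, a nucleoside diphosphate kinase, was at 91.1, 91.8 and 101 CPM with sh-Control, 82.2, 80.2 and 109 with shDDX41 #1 and 66.1, 67.1 and 62.2 with shDDX41 #2. All shDDX41 #2 libraries lay below every other library, and the log2 fold change was −0.54 ± 0.1, adjusted p = 0.0013. With shDDX41 #1 it was −0.066 ± 0.099, adjusted p = 0.61, library D being above the controls and libraries A and B below them. Without that library D, NME1 was lower with shDDX41 #1 as well (−0.21, adjusted p = 0.014). NME2, its near copy, held only 25 to 38 counts per library and was not called (0.034 and −0.20). The read-through gene NME1-NME2 overlaps both genes, so their counts are uncertain. CMPK1, which phosphorylates UMP and CMP, had log2 fold changes of 0.049 and 0.16 and was not called with all 9 libraries fitted. With shDDX41 #2 it was higher with only the 6 libraries compared (adjusted p = 0.0298), with libraries A and B only (adjusted p = 0.013) and without library D of shDDX41 #1 (adjusted p = 0.025). In the comparison of shDDX41 #1 with control, edgeR, DESeq2 and limma voom called 0 of the 3 kinases, and 0 had an unadjusted p under 0.05. At that unadjusted threshold, 3462 of all 12712 genes tested were lower and 3504 higher.

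Salvage held 4 genes, of which 1 was lower and 1 higher with shDDX41 #1 and 1 was lower with shDDX41 #2. The shares of all genes tested were 24.1% lower and 23.7% higher with shDDX41 #1, and 13.4% lower with shDDX41 #2. HPRT1, which recycles hypoxanthine and guanine, was at 69.9, 70.8 and 85.7 CPM with sh-Control, 47.8, 48.2 and 55.7 with shDDX41 #1 and 59.8, 61.5 and 62.7 with shDDX41 #2. Its libraries with either hairpin lay below all controls, with log2 fold changes of −0.58 ± 0.087, adjusted p = 7e-05, and −0.30 ± 0.085, adjusted p = 0.018. The call for shDDX41 #2 was lost without library D of sh-Control or A or B of shDDX41 #2 (adjusted p 0.061 to 0.095). TYMP, thymidine phosphorylase, which breaks thymidine down to thymine, was at 96.8, 84.98 and 104 CPM with sh-Control, 114, 114 and 153 with shDDX41 #1 and 87.5, 88.5 and 88.7 with shDDX41 #2. It was higher with shDDX41 #1 (0.42 ± 0.1, adjusted p = 0.0036), and library D of that group was highest. Without it the value was 0.28 (adjusted p = 0.0042). TYMP overlaps SCO2, which was at 33.03, 31.5 and 32.3 CPM with sh-Control, 31.5, 31.5 and 37.3 with shDDX41 #1 and 20.3, 20.6 and 20.7 with shDDX41 #2, and was lower with shDDX41 #2 (−0.65 ± 0.084, adjusted p = 6.1e-05) where TYMP was not called (−0.11 ± 0.1, adjusted p = 0.47). The adenine salvage enzymes APRT and ADK were not called. APRT had log2 fold changes of 0.19 and 0.13 with the hairpins, and ADK, adenosine kinase, of −0.12 and −0.012. ADK passed with shDDX41 #1 without its library D (−0.24, adjusted p = 0.0065), and APRT with upper quartile factors (0.27, adjusted p = 0.023) or without library A of shDDX41 #1 (adjusted p = 0.046).

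Several enzymes have alternative forms, and the log2 ratio of their counts within a library does not depend on scaling between libraries. The counts are not corrected for length, so only differences of a ratio between groups are given. RRM2B, an alternative small subunit induced by p53 and used outside S phase, was at 179.5, 195 and 221 CPM with sh-Control, 228, 217 and 229.8 with shDDX41 #1 and 281, 297 and 273 with shDDX41 #2. It rose with shDDX41 #2 (0.52 ± 0.075, adjusted p = 0.00017) and did not pass with shDDX41 #1 (0.18 ± 0.075, adjusted p = 0.059), where it did by DESeq2, by limma voom and with upper quartile factors (adjusted p = 0.048, 0.048 and 0.011). The log2 ratio of RRM2 to RRM2B was 0.98, 0.87 and 0.59 with sh-Control, −0.94, −0.83 and −1.24 with shDDX41 #1 and 0.13, 0.052 and 0.10 with shDDX41 #2. The ratio thus fell by 1.82 and by 0.72 on the log2 scale, with no overlap among the 3 groups. The ratio of RRM2 to RRM1 differed from control by −0.70 with shDDX41 #1, without overlap, and by −0.17 with shDDX41 #2, with overlap.

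TK2, the mitochondrial thymidine kinase, was at 36.03, 40.5 and 42.5 CPM with sh-Control, 48.4, 51.8 and 46.8 with shDDX41 #1 and 53.9, 58.2 and 60.2 with shDDX41 #2. It was higher with both hairpins (0.30 ± 0.079, adjusted p = 0.0054, and 0.53 ± 0.078, adjusted p = 0.000201). The log2 ratio of TK1 to TK2 was 1.32, 0.98 and 0.95 with sh-Control, −0.19, −0.46 and −0.23 with shDDX41 #1 and 0.48, 0.47 and 0.32 with shDDX41 #2. None of the groups overlapped, and the differences from control were −1.38 and −0.66. The ratio of PRPS1 to PRPS2 was higher by 0.31 and 0.30 with the hairpins, without overlap with control, and the hairpins themselves overlapped. CTPS1 to CTPS2 moved by 0.24 with shDDX41 #1 and −0.35 with shDDX41 #2, both without overlap, and the first was 0.11 without library A of sh-Control. IMPDH2 to IMPDH1 moved by 0.24 and 0.079, the second with overlap, and NME1 to NME2 by −0.11 and −0.35, both with overlap. Without library D of shDDX41 #1 the first IMPDH2 to IMPDH1 value was 0.15. A two-sided exact permutation test of 3 against 3 libraries cannot give a p below 0.1. Each comparison without overlap therefore had an exact p = 0.1 (0.131 after Benjamini-Hochberg adjustment over the 21 ratio tests), and none could pass.

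**Figure D4:**
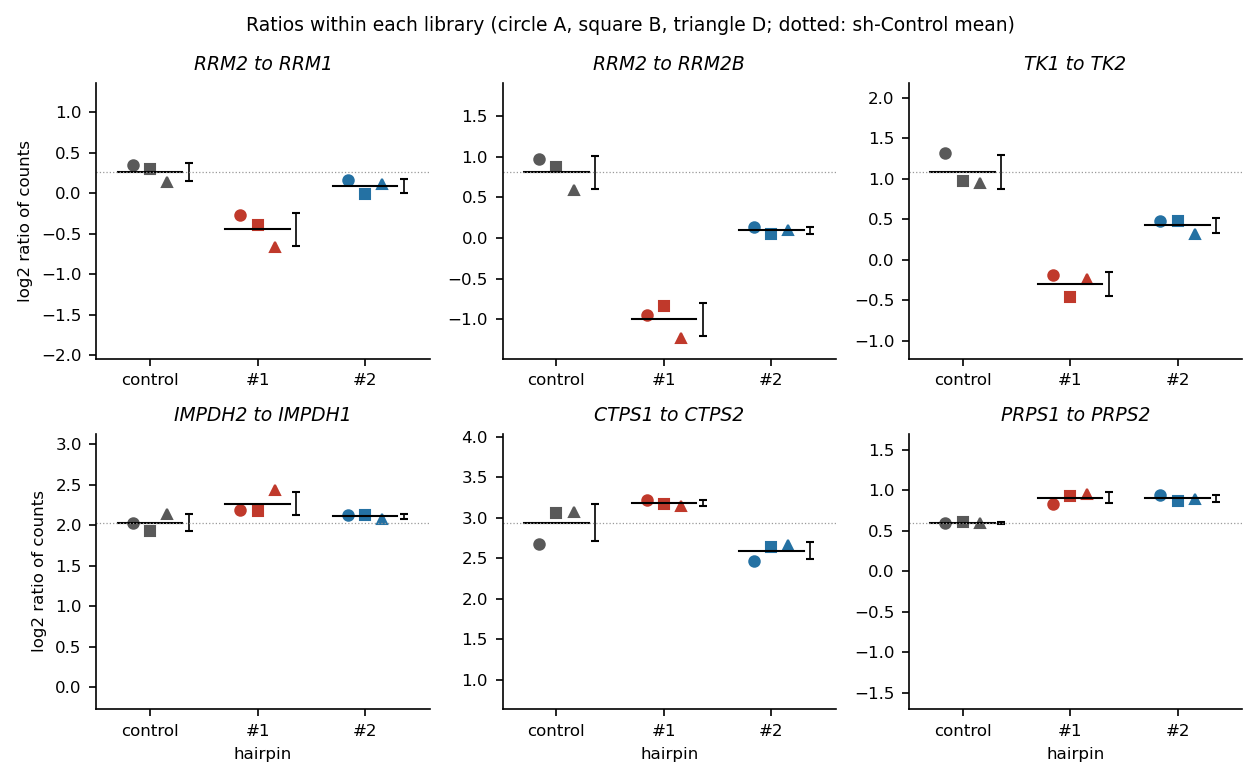
Log2 ratio of the counts of paired genes in each library, with the mean (line) and SD (bar) of 3 libraries, every panel spanning the same log2 range. The ratios of RRM2 to RRM2B and TK1 to TK2 fall below the sh-Control mean (dotted) in all libraries of both hairpins.

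Genes around the pathway were counted in lists drawn up in the same way. Among 21 other nucleotide kinases and salvage enzymes, 20 were tested, 7 were called with shDDX41 #1 (4 lower, 3 higher) and 8 with shDDX41 #2 (4 lower, 4 higher). These were 35% and 40% of those tested, beside 47.8% and 25% of all genes. AK3, the GTP-using kinase of the mitochondrial matrix, was at 55.7, 58.3 and 62.4 CPM with sh-Control, 40.6, 35.9 and 42.1 with shDDX41 #1 and 84.1, 86.5 and 81.9 with shDDX41 #2. It fell with shDDX41 #1 (−0.57 ± 0.075, adjusted p = 2e-05) and rose with shDDX41 #2 (0.52 ± 0.072, adjusted p = 0.00013), and the groups did not overlap. The hairpins differed by −1.09 (adjusted p = 3.3e-08).

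Of 18 genes of nucleotide breakdown, 14 were tested, 7 were called with shDDX41 #1 (4 lower, 3 higher) and 5 with shDDX41 #2 (2 lower, 3 higher). These were 50.0% and 35.7% of those tested, beside 47.8% and 25% of all genes. SAMHD1, the triphosphohydrolase that degrades deoxynucleotides and inactivates cytarabine triphosphate, was at 61.01, 67.5 and 69.1 CPM with sh-Control, 152, 147 and 160.4 with shDDX41 #1 and 96.99, 109 and 111 with shDDX41 #2. The groups did not overlap, and it rose with both hairpins (1.21 ± 0.074, adjusted p = 1.2e-08, and 0.68 ± 0.074, adjusted p = 1.4e-05), more with shDDX41 #1 (difference 0.53, adjusted p = 2.7e-05). ADA, adenosine deaminase, was at 45.6, 44.4 and 46.1 CPM with sh-Control, 77.6, 81.95 and 92.9 with shDDX41 #1 and 58.9, 58.4 and 64.5 with shDDX41 #2. It also rose with both hairpins (0.89 ± 0.076, adjusted p = 2.9e-07, and 0.42 ± 0.077, adjusted p = 0.0012). PNP, which splits purine nucleosides, fell with both (−0.26 ± 0.059, adjusted p = 0.0021, and −0.40 ± 0.059, adjusted p = 0.00023).

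All 16 genes of folate and one-carbon supply were tested. With shDDX41 #1, 10 were lower and 1 was higher, with a median of −0.47, and with shDDX41 #2, 5 were lower and 2 higher, with a median of −0.12. The called genes were 68.8% and 43.8% of the 16, beside 47.8% and 25% of all genes. MTHFD1L, a mitochondrial formyl-tetrahydrofolate synthetase, was at 143, 140.0 and 141 CPM with sh-Control, 65.4, 67.9 and 70.6 with shDDX41 #1 and 111, 125 and 115 with shDDX41 #2. It was lower with both hairpins (−1.06 ± 0.066, adjusted p = 1.4e-08, and −0.27 ± 0.064, adjusted p = 0.0063). The serine synthesis enzymes PHGDH and PSAT1 were lower with both hairpins too, with log2 fold changes of −0.83 and −0.39 for PHGDH and −0.81 and −0.47 for PSAT1 (adjusted p from 1.1e-07 to 0.00042).

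**Figure D5:**
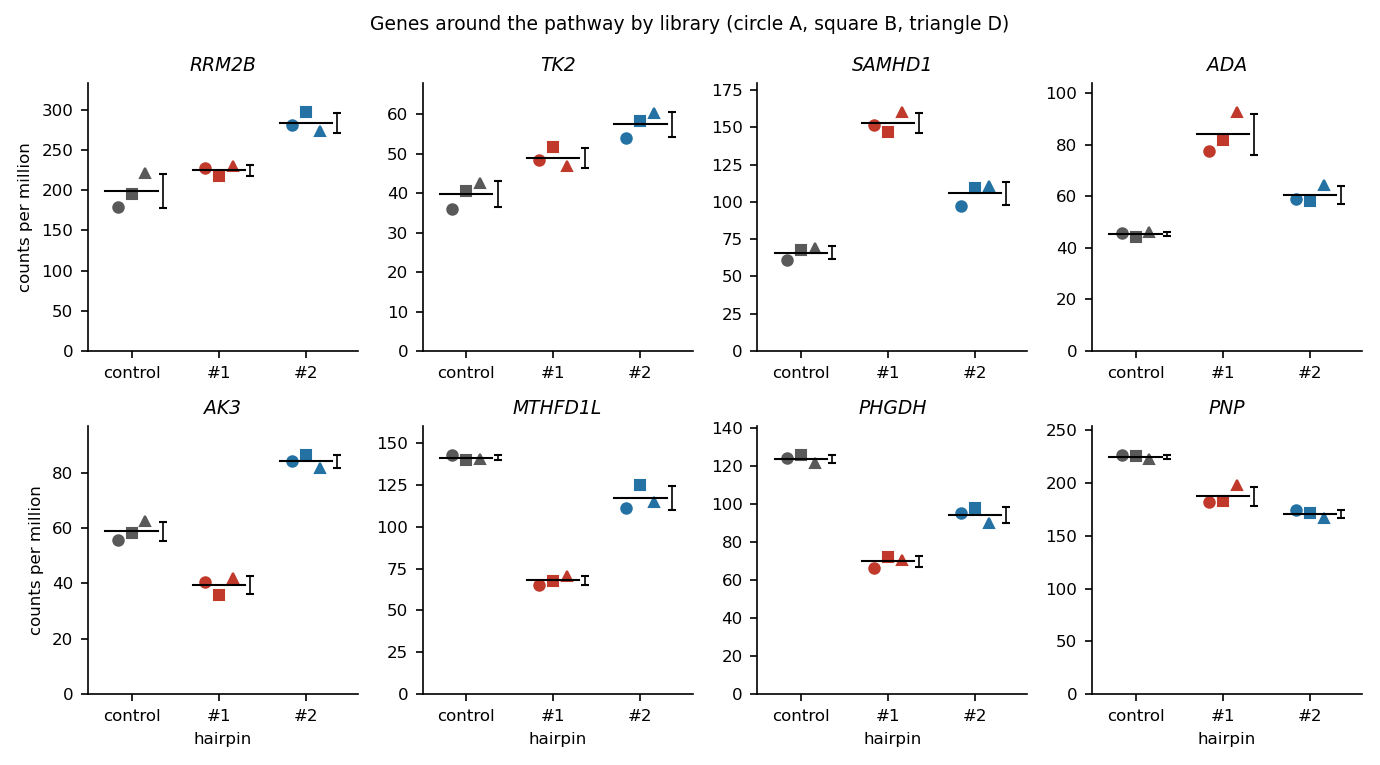
CPM values of 8 genes around the pathway in each library, with the mean (line) and SD (bar) of 3 libraries. AK3 lies below control with shDDX41 #1 and above it with shDDX41 #2, MTHFD1L and PHGDH lie below it with both hairpins, and SAMHD1 and ADA lie above it with both hairpins.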

How the data were processed

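The authors sequenced poly(A) RNA of GFP-positive MOLM13 cells carrying sh-Control, shDDX41 #1 or shDDX41 #2. The kit is a strand-keeping one per the labels and an unstranded one per the methods, so overlapping genes on opposite strands are uncertain. The submitters' processing notes list FastQC 0.11.7, HISAT2 2.0.5 and featureCounts 1.5.2 and the builds mm10 and hg38, with no role given. The annotation is not given in the sources used here. The deposited values are raw read counts by gene symbol with 1 column for each library, and library totals ran from 16385238 to 20510032. The study describes its quantified assays in general as repeated on biological replicates, but the labels do not say that the libraries of a group came from separate cultures. If they did not, p-values measure only the spread between these libraries, which may be technical.

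The test was edgeR's quasi-likelihood F test (edgeR 4.0.16 in R 4.3.3) with filterByExpr at a minimum count of 10, TMM scaling and 1 coefficient per group over all 9 libraries. Benjamini-Hochberg adjustment ran over the 12712 genes tested. The study's methods name iGeak and AltAnalyze for the mapped reads and a general pairwise test for quantified assays, with no model stated for these counts. Standard errors are the log2 fold change over the root of F, and intervals are 95%. Ratios used counts plus 0.5. Alternatives were DESeq2 1.42.0, limma 3.58.1 voom, other scaling factors, no filter, a fit of just the 6 libraries in question, a block for the letter, leaving out single libraries and, added after seeing the data, libraries A and B only. Scripts were tested on simulated data. The members and lists were chosen with earlier results of these data known. All 32 genes were named, and from each list of other genes the 2 with the smallest adjusted p for each hairpin against control, plus RRM2B and TK2, except for a few genes that are not reported here. ENOSF1, SCO2 and NME1-NME2 were named for overlapping a member, and marker genes were named for the check of the cells. Promoter windows and gene positions are RefSeq's, GRCh38.p14, with ADSS matched as ADSS2.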

Additional observations from a re-analysis of the deposited data

How the results depend on the processing

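Counts of called genes stayed within 1.5 times under DESeq2 size factors, upper quartile factors, no filter on low counts, the DESeq2 Wald test and limma voom, for all 32 genes and for the deoxynucleotide genes in all 3 comparisons. For shDDX41 #2 against sh-Control 1 deoxynucleotide gene (RRM2) was called, in place of 0, with only the 6 libraries compared, with the replicate block, and with libraries A and B only, an alternative chosen after seeing the data. With 1 library left out in turn, the number of the 32 genes called there ranged from 5 (without D of sh-Control or A of shDDX41 #2) to 11 (without D of shDDX41 #1), and the number of deoxynucleotide genes from 0 to 1. The ranges were 20 to 27 for shDDX41 #1 against sh-Control and 17 to 24 between the hairpins. In none of the alternative fits was the share of all genes called counted. These counts therefore show only how the calls of the listed genes moved. Whether the replicate letters pair the libraries was not settled. The correlations of same-lettered libraries' deviations from their group means ran from −0.057 to 0.24. Between sh-Control and shDDX41 #1 they were 0.073, 0.16 and 0.24 for A, B and D. Libraries of different letters were not compared in this way. With the letter as a replicate block 23, 9 and 20 of the 32 genes were called in the 3 comparisons. The block added calls for RRM2 with shDDX41 #2 (adjusted p = 0.029) and APRT with shDDX41 #1 (adjusted p = 0.049).

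Among the 32 genes and the ratios, signs turned only for values that were not called with all 9 libraries. With upper quartile factors the log2 fold change turned to ATIC 0.068 and NME1 0.011 for shDDX41 #1 against sh-Control, IMPDH1 0.021, RRM1 0.011 and ADK 0.022 for shDDX41 #2 against sh-Control, and ATIC 0.026 and DCTPP1 0.038 for shDDX41 #1 against shDDX41 #2. With libraries A and B only it turned to NME2 −0.26 for shDDX41 #1 against sh-Control, ADSL 0.071, CAD −0.059, RRM1 0.045, TYMS 0.012, DUT 0.0074 and ADK 0.053 for shDDX41 #2 against sh-Control, and UMPS −0.010 and APRT −0.047 for shDDX41 #1 against shDDX41 #2. With 1 library left out, the values crossing 0 ran as follows: ATIC from −0.039 to 0.037, NME1 from −0.21 to 0.018, NME2 from −0.13 to 0.20, CMPK1 from −0.011 to 0.12 and NME1 to NME2 ratio from −0.28 to 0.067 for shDDX41 #1 against sh-Control, ADSL from −0.083 to 0.034, ATIC from −0.019 to 0.052, IMPDH1 from −0.043 to 0.0079, CAD from −0.0698 to 0.10, RRM1 from −0.088 to 0.015 and ADK from −0.047 to 0.048 for shDDX41 #2 against sh-Control, and PFAS from −0.0076 to 0.18, ATIC from −0.055 to 0.00703, DCTPP1 from −0.082 to 0.080, APRT from −0.029 to 0.12 and PRPS1 to PRPS2 ratio from −0.017 to 0.045 for shDDX41 #1 against shDDX41 #2. The cause was not tested. At this depth the standard error of most log2 fold changes was under 0.1, but that of NME2, with its few counts, was 0.25.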

Other observations

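The 6 nucleoside transporters, through which cells take up nucleosides and nucleoside drugs, held 3 genes that passed the filter on low counts. SLC29A1 (ENT1), the main equilibrative transporter and the route of cytarabine into cells, was at 151, 156 and 140.4 CPM with sh-Control, 93.8, 97.6 and 79.2 with shDDX41 #1 and 110.4, 108 and 109 with shDDX41 #2. It was lower with both hairpins in the edgeR test (−0.73 ± 0.077, adjusted p = 2.7e-06, and −0.45 ± 0.076, adjusted p = 0.00065), without overlap with control. SLC29A2 (ENT2) was at 39.5, 37.8 and 34.3 CPM with sh-Control, 29.2, 27.9 and 22.1 with shDDX41 #1 and 18.3, 17.6 and 17.7 with shDDX41 #2. It was lower with both as well (−0.49 ± 0.099, adjusted p = 0.00081, and −1.06 ± 0.1, adjusted p = 4.3e-06), and the order of the hairpins was the reverse of that of SLC29A1, with a difference of shDDX41 #1 against shDDX41 #2 of 0.56 (adjusted p = 0.00038) beside −0.27 (adjusted p = 0.0086). The third tested transporter was not called.

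Among the 18 replication genes, MKI67 included, the number lower with shDDX41 #2 was 3, and 7 without library D of shDDX41 #1. The first number was 16.7% of the list, beside 13.4% of all genes tested. The share of all genes that were lower was not counted without that library, so the second number has none beside it. CDC45, a part of the replicative helicase, was at 76.2, 85.6 and 82.5 CPM with sh-Control, 27.6, 31.4 and 31.2 with shDDX41 #1 and 69.8, 64.9 and 68.97 with shDDX41 #2, with log2 fold changes of −1.44 and −0.26, the second call being lost without library B of sh-Control or of shDDX41 #2 (adjusted p = 0.069 and 0.075). POLD1, the catalytic subunit of DNA polymerase delta, was at 219.8, 214 and 207 CPM with sh-Control, 96.4, 105 and 93.1 with shDDX41 #1 and 199, 187 and 181 with shDDX41 #2, with log2 fold changes of −1.12 and −0.18, the second not passing. MCM6, another helicase part, went against the order of the hairpins, at −0.61 with shDDX41 #1 and −0.98 with shDDX41 #2, and differed between them by 0.37 (adjusted p = 0.000196).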
